A study of Macaca mulatta with 161 samples.

Results

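The genes described here are 10 imprinted regulators of growth, chosen by name: IGF2, PEG3, PEG10, MEST, SNRPN, GRB10, PHLDA2, CDKN1C, NDN and PLAGL1. Of these, 9 have a row among the 16049 genes of the deposited expression table, and CDKN1C was not analysed here. They were followed across 161 single inner cells of rhesus monkey (Macaca mulatta) blastocysts, and against the levels of NANOG, a transcription factor of the pluripotent epiblast, and SOX17, a transcription factor of the primitive endoderm. An imprinted gene is read mainly from the copy inherited from one parent, because DNA methylation set in the egg or the sperm is kept on one copy after fertilisation. In mouse and human, IGF2, PEG3, PEG10, MEST, SNRPN, NDN and PLAGL1 are read mainly from the paternal copy, PHLDA2 and CDKN1C from the maternal copy, and GRB10 from either copy depending on the tissue. Many paternally expressed members favour growth of the fetus and placenta and many maternally expressed members restrain it, and several act mainly in the placenta. The values give the summed RNA of both copies and do not tell the parental copies apart.

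Each library holds the polyadenylated RNA of 1 cell, amplified by PCR. Oocytes came from hormone-stimulated females, and the embryos grew in culture. Outer cells were labelled with the dye PKH26, and cells without its fluorescence were taken as inner cells. Of the cells, 44 came from the early blastocyst, collected near embryonic day 5 with a small cavity, 39 from the middle blastocyst (about day 5.5), 52 from the late, fully expanded blastocyst (about day 6) and 26 from the blastocyst labelled hatching (about day 7), which the protocol describes as having left the zona pellucida. The labels name no treatment, genotype, embryo or animal behind a cell. Each stage is therefore 1 sample, cells are not replicates of a stage, and no test between stages was possible. Levels are FPKM, fragments counted per kilobase of a transcript and scaled by the depth of the cell, so that genes can be compared with each other per length. Means and SDs are of log2(FPKM + 1) over cells, a difference is between such means, and a gene counts as detected in a cell at an FPKM of at least 1. This scale understates differences of low genes.

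The reads recovered from the values had a median of 10.6, 12.1, 10.5 and 11.1 M (mega) per cell in the early, middle, late and hatching stages, over a range of 2.97 to 18.9 M. An FPKM of 1 stood for a median of 100.3 reads of PEG3, 80.0 of MEST, 77.5 of PEG10, 73.5 of IGF2, 56.2 of GRB10, 18.9 of NDN and 12.5 of PHLDA2. NANOG was detected in all 44 early and all 39 middle cells, and 0 of these cells had SOX17 above NANOG. In the late stage 19 cells had SOX17 above NANOG (called SOX17-leading here) and 33 did not (NANOG-leading), and in the hatching stage these numbers were 7 and 19. These are ranges of cells and not cell types. When late cells were clustered and the clusters named by markers, the primitive endoderm cluster had 29 cells. It held all 19 SOX17-leading cells and also some NANOG-leading ones, so the late NANOG-leading group is mixed. The hatching clusters, of 7 and 19 cells, matched the split. Of the late cells, 7 had SOX17 and NANOG less than 2 log2 units apart, and of the hatching cells 0 did. The early cell titled E9 stood apart. Its median correlation with the other early cells, across genes above 0 in any early cell, was 0.57, against 0.80 for the lowest of the others, and it held 6.45 FPKM of NANOG, against a median of 182 FPKM in the other early cells. Oocyte markers were low on average: the mean log2 level over the 8 with a row was at most 0.77 in any cell. Single markers were higher in some cells. ZP2 reached 69.9 FPKM in 1 of the 7 SOX17-leading hatching cells. GDF9 was detected in 5 of 44 early cells, at up to 19.1 FPKM. ZP3 reached 19.5 FPKM in an early cell and MOS 18.2 FPKM in a late cell, while ZP4 and BMP15 were detected in no cell.

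MEST and GRB10 were the members read in nearly every inner cell, PEG3 and NDN were present in some cells and at or near 0 in the rest, and PEG10, PHLDA2, IGF2, SNRPN and PLAGL1 were detected in few cells or in none. By its mean, MEST ranked above 83.5%, 87.7%, 89.0% and 92.7% of all 16049 genes in the early, middle, late and hatching stages. For GRB10 these shares were 77.7%, 74.0%, 80.3% and 86.1%. A cell held a median of 2.5 detected members in the early stage and of 3 in each later stage. The highest number was 6 members, in hatching cell H6.

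**Figure D1:**
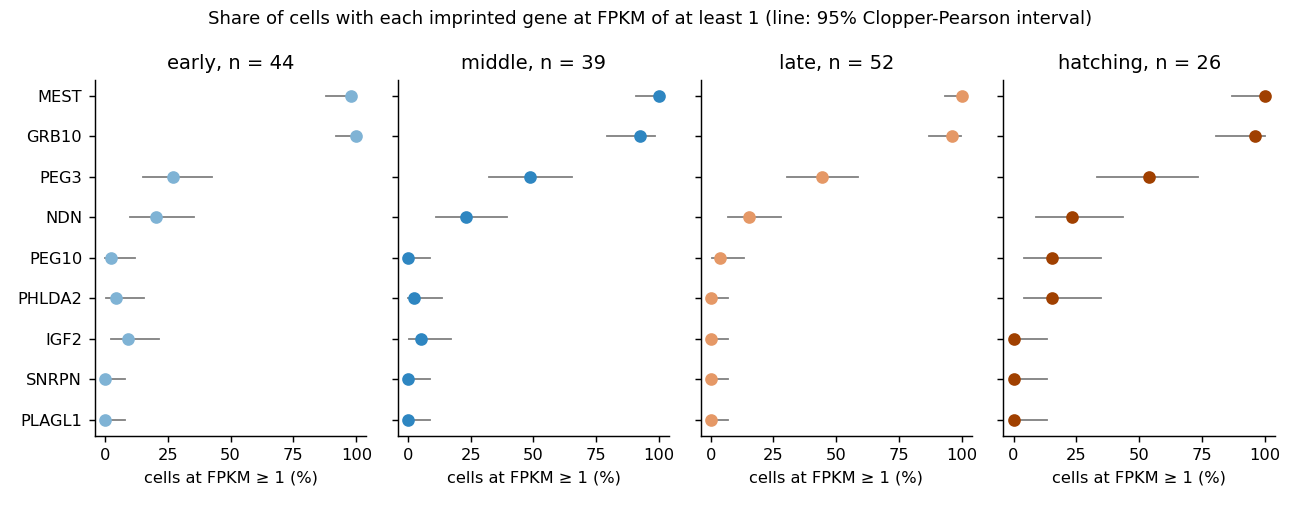
Share of cells (x axis, percent) in which each of the 9 members (y axis) reached an FPKM of at least 1, in 1 panel per stage; lines are exact Clopper-Pearson 95% intervals, which cover the counting error of cells only. MEST and GRB10 lie between 92.3% and 100% in every stage, PEG3 between 27.3% and 53.8%, NDN between 15.4% and 23.1%, and the other 5 members at or below 15.4%.

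MEST, an imprinted gene that encodes an enzyme of the alpha/beta hydrolase fold and whose loss reduces growth of the mouse fetus, was higher in each later stage than in the one before it. Its lowest, median and highest values were 0.539, 27.4 and 71.6 FPKM in early cells, 6.78, 44.9 and 86.6 FPKM in middle cells, 15.03, 48.8 and 118 FPKM in late cells, and 10.9, 65.9 and 364 FPKM in hatching cells. The early minimum was E9, and the next lowest early cell had 4.38 FPKM. On the log2 scale MEST averaged 6.11 ± 0.95 in hatching cells (SD, n = 26) and 4.73 ± 1.01 in early cells (n = 44). This difference of 1.38 log2 units is larger than the SD between cells in either stage, and it was 1.29 with E9 left out. The ranges overlapped: 12 of 26 hatching cells lay above every early cell, and 5 of 44 early cells lay below every hatching cell. Between neighbouring stages, middle minus early cells came to 0.75 log2 units, late minus middle cells to 0.10 and hatching minus late cells to 0.53. The first step is smaller than the early SD but larger than the middle SD of 0.69. The steps of 0.10 and 0.53 are smaller than the SD in each stage compared, with 0.67 in late cells.

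GRB10, an adaptor protein that binds the insulin and IGF1 receptors and dampens their signal, was detected in 44 of 44 early, 36 of 39 middle, 50 of 52 late and 25 of 26 hatching cells. Its lowest, median and highest values were 1.36, 15.2 and 74.4 FPKM in early cells, 0, 13.3 and 41.4 FPKM in middle cells, 0.177, 19.98 and 68.3 FPKM in late cells, and 0.477, 29.7 and 216 FPKM in hatching cells. The 4 stages overlapped widely, and 3 hatching cells lay above every early and every late cell. GRB10 averaged 4.85 ± 1.37 on the log2 scale in hatching cells (SD, n = 26) and 3.91 ± 1.20 in early cells (n = 44), a difference of 0.95 log2 units that is smaller than the SD between cells. GRB10 also varied inside a stage with the numbers in the cells' titles, whose meaning the labels do not give. Early cells numbered 29 and above averaged 3.35 ± 1.17 (n = 19) and those up to 28 averaged 4.33 ± 1.05 (n = 25). Middle cells numbered 32 and above averaged 2.78 ± 1.36 (n = 12) and those up to 29 averaged 3.96 ± 1.00 (n = 27). The difference of hatching from early cells was accordingly 1.51 log2 units among high title numbers and 0.51 among low ones. Depth also differed with these numbers. Early cells had 10.7 to 17.8 M recovered reads among high numbers and 6.02 to 13.2 M among low ones. In middle cells these ranges were 10.9 to 18.3 M and 3.69 to 15.3 M, and in hatching cells 9.00 to 18.9 M and 5.10 to 11.5 M. The part of depth in GRB10 was not tested.

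**Figure D2:**
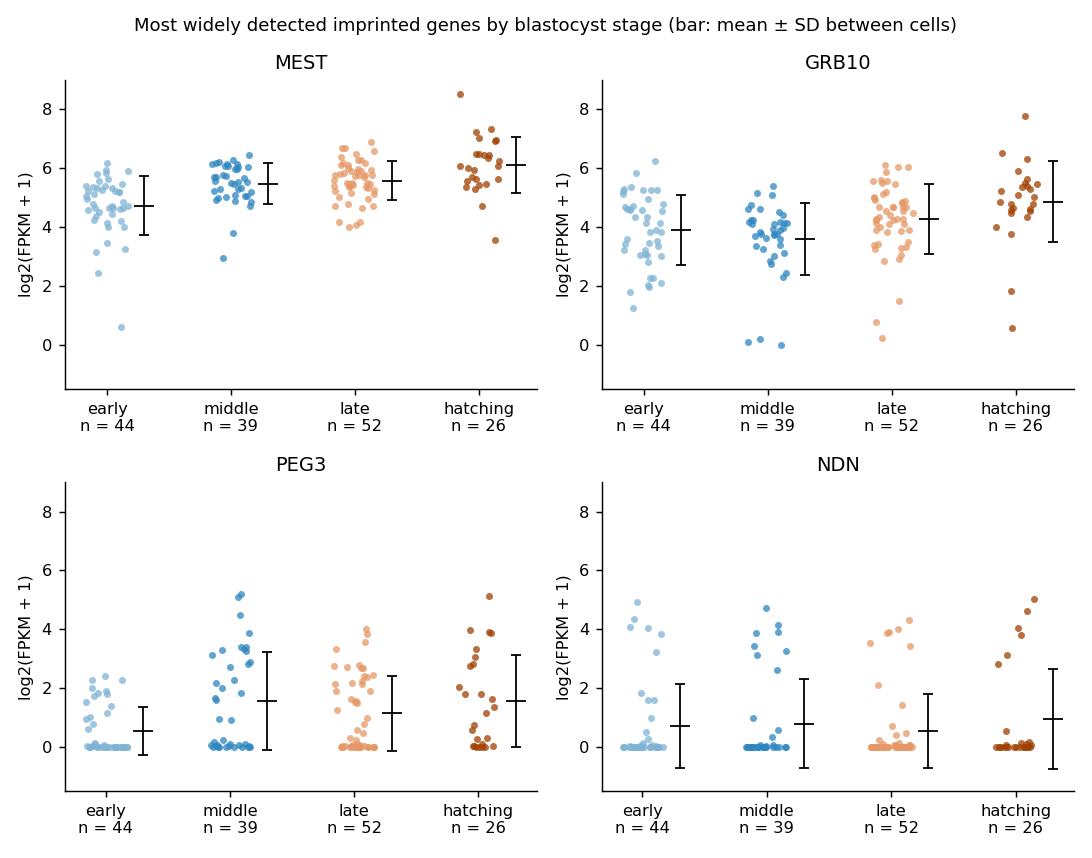
Level of the 4 most widely detected members in each cell (y axis, log2(FPKM + 1)) by stage (x axis), 1 point per cell, with the mean and the SD between cells as a bar at the right of each stage. MEST averaged 4.73, 5.48, 5.58 and 6.11 from early to hatching and GRB10 3.91, 3.60, 4.27 and 4.85, while PEG3 and NDN hold many cells at or near 0 beside cells of up to 35.6 and 31.9 FPKM.

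PEG3, a zinc finger protein that in mice is needed for normal fetal growth and maternal behaviour, was read in some cells of every stage, and in a larger share of the cells after the early stage. It was detected in 12 of 44 early cells (27.3%, exact Clopper-Pearson 95% interval 14.96% to 42.8%), 19 of 39 middle cells (48.7%, 32.4% to 65.2%), 23 of 52 late cells (44.2%, 30.5% to 58.7%) and 14 of 26 hatching cells (53.8%, 33.4% to 73.4%). These intervals overlap and cover counting error only, and shared embryos, which no label names, would make them wider. The median and highest values were 0.0128 and 4.29 FPKM in early cells, 0.958 and 35.6 FPKM in middle cells, 0.435 and 15.1 FPKM in late cells, and 1.41 and 33.8 FPKM in hatching cells. The upper ends of the later stages therefore stood apart from the early stage: 13 of 39 middle and 8 of 26 hatching cells lay above every early cell. On the log2 scale PEG3 averaged 1.57 ± 1.67 in middle cells (SD, n = 39) and 0.55 ± 0.82 in early cells (n = 44), a difference of 1.02 log2 units. Hatching cells averaged 1.57 ± 1.57 (n = 26), which also differed from the early mean by 1.02. Both differences are smaller than the SD between cells of the later stage. With every cell thinned to 2.5 M reads, at least 1 read of PEG3 was expected in 19.5 of 44 early, 28.7 of 39 middle, 33.95 of 52 late and 20.6 of 26 hatching cells. These numbers count any read, where an FPKM of 1 stood for a median of 100.3 reads. They are therefore no check of the shares at an FPKM of at least 1.

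NDN (necdin), a MAGE family protein that restrains cell division and is imprinted in the Prader-Willi region in human, showed the same mosaic of cells without an order over the stages. It was detected in 9 of 44 early cells (20.5%, 9.80% to 35.3%), 9 of 39 middle cells (23.1%, 11.1% to 39.3%), 8 of 52 late cells (15.4%, 6.88% to 28.1%) and 6 of 26 hatching cells (23.1%, 8.97% to 43.6%). The median was 0 in every stage, and the highest cell had 29.5, 25.2, 19.01 and 31.9 FPKM from early to hatching. All 9 middle cells with NDN were among the 27 with low title numbers, and the 12 with high title numbers reached 0.0350 FPKM at most. SNRPN, the small nuclear ribonucleoprotein polypeptide N of the same region, was listed at 0 in every early, middle and late cell and in 25 of 26 hatching cells, and at 0.0606 FPKM in the other hatching cell. SNURF, which in human is encoded on the same transcript as SNRPN, had a row of its own and averaged 0.09, 0.06, 0.12 and 0.45 on the log2 scale from early to hatching. How reads that fall on both genes were counted is not stated, so SNRPN is uncertain here. MAGEL2, next to NDN, averaged 0.00 in every stage, and MKRN3, also its neighbour, averaged 1.05, 1.30, 1.08 and 1.20. NDN and MKRN3 were detected together in 5, 4, 3 and 0 cells from early to hatching. MKRN3 itself was detected in 16, 18, 19 and 9 cells, and whether it goes with NDN was not tested. PLAGL1, a zinc finger protein that arrests the cell cycle, had a value above 0 in 2 late cells only, both SOX17-leading, with a highest value of 0.465 FPKM.

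IGF2, the secreted growth factor of the family, was detected in 4 of 44 early and 2 of 39 middle cells and in 0 of 52 late and 0 of 26 hatching cells. A count of 0 allows a share of up to 5.77% of late and 11.5% of hatching cells. The early cells had 3.996, 4.93, 5.13 and 5.73 FPKM, the last of them in E9, and the middle cells 1.07 and 17.4 FPKM. The highest late and hatching cells had 0.0839 and 0.165 FPKM. All 6 cells with IGF2 were NANOG-leading, as was every early and middle cell.

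PHLDA2 and PEG10 are best known from the placenta, where the maternally expressed PHLDA2, a pleckstrin homology domain protein, restrains growth and the retrotransposon-derived PEG10 is required in mice. PHLDA2 was detected in 2 early cells, 1 middle cell and 4 hatching cells, and its value was 0 in all 52 late cells, which allows a share of up to 5.77%. The highest value by far was 571 FPKM (4169 reads) in E9, and the other early cell had 3.01 FPKM. E9 also held 83.1 FPKM of ASCL2, 397 FPKM of DLX3, 319 FPKM of KRT19 and 198 FPKM of PGF, genes known from the trophoblast, against medians of 0, 35.6, 0.282 and 8.55 FPKM in the other early cells. It held 0.202 FPKM of CDX2, 32.1 FPKM of KRT8 and 27.7 FPKM of KRT18, against medians of 52.8, 981 and 1048 FPKM in the other early cells, so that the trophectoderm markers did not move one way in it. Whether E9 is an inner cell was not tested. The 4 hatching cells had 5.33, 14.997, 17.7 and 18.3 FPKM of PHLDA2 and were all NANOG-leading, with at most 0.136 FPKM of PGF, 0 of ASCL2 and 0.0374 of GATA3, and between 43.3 and 355 FPKM of KRT19. Such levels of PGF, GATA3 and KRT19 were not particular to them. Over all 19 NANOG-leading hatching cells KRT19 averaged 7.93 ± 0.97 on the log2 scale, and GATA3 and PGF were detected in none. PEG10 was detected in 1 early, 0 middle, 2 late and 4 hatching cells, at 3.33 FPKM in the early cell, at 1.88 and 4.47 FPKM in the late cells, and at 1.26, 1.64, 3.07 and 15.9 FPKM in the hatching cells. SGCE, the neighbour that shares a promoter region with PEG10 in human and mouse, reached an FPKM of 1 in 3 cells of all 161. These were the hatching cells H10, with 29.7 FPKM of SGCE beside 15.9 FPKM of PEG10, and H11, with 7.15 beside 1.26 FPKM, and early cell E27, with 2.54 FPKM of SGCE beside 0 of PEG10.

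Counted over the 9 members, differences of at least 1 log2 unit between stages were few. In hatching minus early cells, MEST and PEG3 were higher and 0 members were lower, against 11.3% of the 9781 genes with a mean FPKM of at least 1 that were higher and 16.2% that were lower. In middle minus early cells, PEG3 was higher and 0 members were lower, against 3.06% of genes higher and 3.61% lower. This difference of PEG3 stands at the limit: it was 0.99 with median-of-ratios scaling of the cells, 0.95 with the median over cells and 0.35 with a pseudocount of 10, each below 1 log2 unit. In late minus middle cells 0 members were past 1 log2 unit in either direction, against 3.95% of genes higher and 5.82% lower. In hatching minus late cells 0 were past it, against 7.26% higher and 9.87% lower. Of the 9 members, 5 (PEG3, MEST, GRB10, PHLDA2 and NDN) have a mean FPKM of at least 1 and belong to those 9781 genes. PHLDA2 belongs to them only through E9. The median of all genes was −0.12 in hatching minus early cells. With cells scaled by the median of ratios instead, it was −0.003, MEST differed by 1.58 and PEG3 by 1.01, and GRB10 passed 1 log2 unit with 1.11. With that scaling 12.9% of genes were higher and 13.3% lower.

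Against NANOG and SOX17, PEG3 was lower where SOX17 led, in both stages that hold such cells. In the hatching stage PEG3 was detected in 1 of 7 SOX17-leading cells (14.3%, 0.361% to 57.9%) and in 13 of 19 NANOG-leading cells (68.4%, 43.4% to 87.4%). The 7 SOX17-leading cells had 0, 0.0247 and 2.08 FPKM as lowest, median and highest value, and the 19 NANOG-leading cells 0, 2.53 and 33.8 FPKM. The ranges overlapped, but 11 of the 19 NANOG-leading cells lay above every SOX17-leading cell. On the log2 scale PEG3 averaged 0.37 ± 0.59 in SOX17-leading cells (SD, n = 7) and 2.01 ± 1.60 in NANOG-leading cells (n = 19), a difference of −1.64. All 7 SOX17-leading hatching cells have title numbers from 1 to 18, where there were 5 NANOG-leading cells with 0.0288, 6.06, 13.9, 13.9 and 33.8 FPKM of PEG3. Within those numbers the difference was −2.79, and no SOX17-leading hatching cell has a higher number.

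In the late stage PEG3 differed the same way and by less. It was detected in 5 of 19 SOX17-leading cells (26.3%, 9.15% to 51.2%) and in 18 of 33 NANOG-leading cells (54.5%, 36.4% to 71.9%), with medians of 0.0181 FPKM in SOX17-leading and 1.86 FPKM in NANOG-leading cells. The means were 0.65 ± 1.10 in SOX17-leading cells (SD, n = 19) and 1.43 ± 1.28 in NANOG-leading cells (n = 33), a difference of −0.79 that is within the SD between cells. Without the 7 cells whose SOX17 and NANOG are less than 2 log2 units apart it was −1.10, past 1 log2 unit. The highest SOX17-leading cell, with 13.3 FPKM of PEG3, is one of those 7, with 67.9 FPKM of SOX17 beside 63.0 FPKM of NANOG. Over all cells of a stage, Spearman's rho of PEG3 with NANOG was 0.39 in late cells (n = 52) and 0.43 in hatching cells (n = 26), and with SOX17 it was −0.30 and −0.26. These are descriptions over cells that share a stage and the split just described, and among the 14 hatching cells with high title numbers, all NANOG-leading, rho with NANOG was 0.01. For comparison, POU5F1, a factor of the same pluripotent cells, had a rho with NANOG of 0.81 in late and 0.67 in hatching cells. Among the 14 hatching cells with high title numbers it was 0.30.

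**Figure D3:**
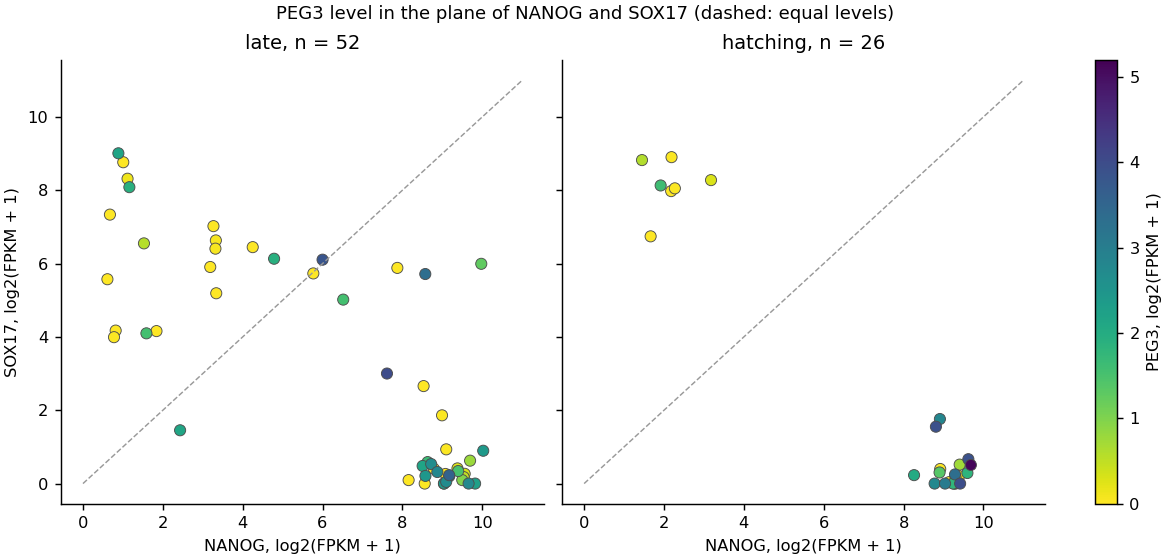
NANOG (x axis) and SOX17 (y axis) of each late (left) and hatching (right) cell on the log2(FPKM + 1) scale, coloured by PEG3 on the same scale; the dashed line marks equal levels. Cells above the line are SOX17-leading (19 late, 7 hatching) and most of them are pale, with medians of 0.0181 and 0.0247 FPKM of PEG3, while the NANOG-leading cells below it range from 0 to 15.1 FPKM in the late and to 33.8 FPKM in the hatching stage.

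NDN was detected in 0 of 7 SOX17-leading and 6 of 19 NANOG-leading hatching cells, where a count of 0 in 7 cells allows a share of up to 42.9%. It averaged 0.10 ± 0.21 on the log2 scale in SOX17-leading cells and 1.25 ± 1.90 in NANOG-leading cells, a difference of −1.15 that is smaller than the SD of the NANOG-leading cells and was −0.90 within title numbers 1 to 18. That value rests on 1 cell: of the 5 NANOG-leading cells with those numbers, only H6 had NDN (31.9 FPKM), and the others were at 0. In the late stage it was detected in 2 of 19 SOX17-leading and 6 of 33 NANOG-leading cells. PHLDA2 was detected in 0 of 7 SOX17-leading and 4 of 19 NANOG-leading hatching cells, and averaged 0.03 ± 0.05 in the SOX17-leading and 0.80 ± 1.62 in the NANOG-leading cells. PEG10 lay the other way, with 3 of 7 SOX17-leading cells (42.9%, 9.90% to 81.6%) and 1 of 19 NANOG-leading cells (5.26%, 0.133% to 26.03%). It averaged 1.05 ± 1.55 in the SOX17-leading and 0.13 ± 0.35 in the NANOG-leading cells, and in the late stage 1 of 19 SOX17-leading and 1 of 33 NANOG-leading cells had it. The 4 hatching cells with PEG10, H1, H6, H10 and H11, all have title numbers 1 to 18. Within those numbers PEG10 was detected in 3 of 7 SOX17-leading and 1 of 5 NANOG-leading cells. The 14 hatching cells with higher numbers, all NANOG-leading, were below an FPKM of 1. These 3 hatching differences rest on 6 cells with NDN, 4 with PHLDA2 and 4 with PEG10.

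MEST averaged 6.68 ± 1.14 on the log2 scale in SOX17-leading hatching cells (n = 7) and 5.90 ± 0.81 in NANOG-leading ones (n = 19), with medians of 88.2 FPKM in SOX17-leading and 60.9 FPKM in NANOG-leading cells. The difference of 0.78 is smaller than the SD in each of these groups, and 1 of the 7 SOX17-leading cells lay above every NANOG-leading cell. In late cells the means were 5.60 ± 0.72 where SOX17 led (n = 19) and 5.56 ± 0.66 where NANOG led (n = 33), which differ by less than the SD. GRB10 averaged 4.75 ± 0.85 in SOX17-leading late cells and 3.99 ± 1.28 in NANOG-leading ones, a difference of 0.76 that is smaller than the SD between cells in each of these groups. In the hatching stage its means were 4.81 ± 2.63 in SOX17-leading cells and 4.87 ± 0.55 in NANOG-leading cells. The difference of −0.07 is 0.44 after median-of-ratios scaling, so that its direction depends on the scaling. The spread differed more than the mean: the 7 SOX17-leading cells ran from 0.477 to 216 FPKM, with 3 above and 2 below every NANOG-leading cell, and the 19 NANOG-leading cells from 12.4 to 58.8 FPKM. The lowest of the 7, cell H18, had the highest MEST of all 161 cells, 364 FPKM. Both ends of the GRB10 range lay in cells with few detected genes. H13 (216 FPKM of GRB10) had 4974 and H18 had 5001, the lowest numbers of all 161 cells. The part of library quality in these values was not tested.

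**Figure D4:**
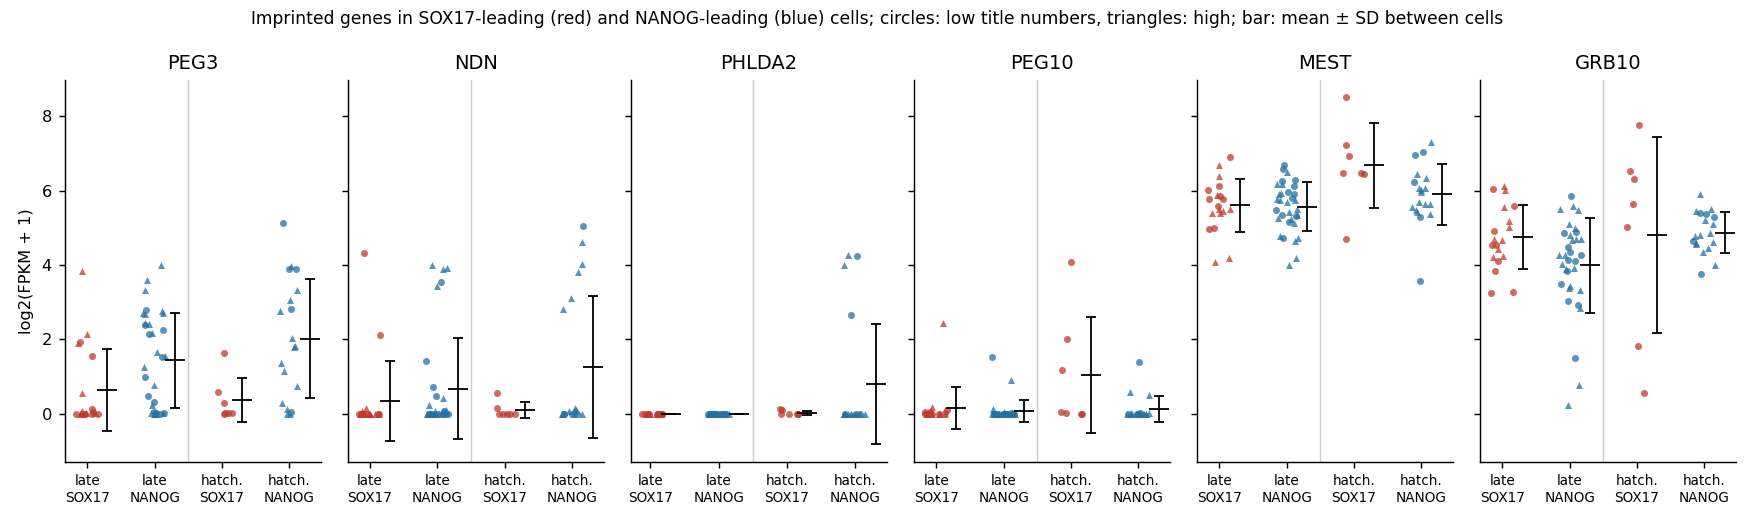
Level of 6 members (y axis, log2(FPKM + 1)) in SOX17-leading and NANOG-leading cells of the late and hatching stages (x axis), 1 point per cell, circles for low and triangles for high title numbers, with mean and SD between cells. In the hatching stage the 7 SOX17-leading cells lie at or below 2.08 FPKM of PEG3 and 0.476 FPKM of NDN, while 3 of them hold PEG10 at 1.26 to 15.9 FPKM. GRB10 spreads from 0.477 to 216 FPKM in these cells, and both ends of that range are cells with few detected genes.

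Of the 9 members, 0 were at least 1 log2 unit apart in late SOX17-leading minus NANOG-leading cells, against 7.69% of genes higher and 7.89% lower. In the hatching stage 0 were higher and 2, PEG3 and NDN, were lower, against 14.2% of genes higher and 33.7% lower, so that lower values were common among all genes there. The 7 SOX17-leading hatching cells had a median of 9.09 M recovered reads and 5680 detected genes, and the 19 NANOG-leading cells 12.6 M and 6940, and the median of all genes differed by −0.45. With median-of-ratios scaling that median was −0.15, the shares were 20.6% of genes higher and 25.4% lower, PEG3 differed by −1.47 and NDN by −1.06, and MEST and PEG10 passed 1 log2 unit with 1.37 and 1.04. The 5 NANOG-leading hatching cells with low title numbers had 7.90 to 10.8 M recovered reads, and the 14 with high numbers 9.00 to 18.9 M. The 7 SOX17-leading cells, all with low numbers, had 5.10 to 11.5 M. Detected genes were 5644 to 6728 in the low-numbered NANOG-leading cells and 4974 to 6117 in the SOX17-leading cells. The differences of PEG3 and NDN within low title numbers are given above. The part of depth in the differences of the members was not tested further. Trophectoderm markers moved with the split in both directions. Of the 14 with a mean FPKM of at least 1, 4 were at least 1 log2 unit higher in SOX17-leading minus NANOG-leading hatching cells, GATA3 by 4.01, ENPEP by 2.92, CDX2 by 2.58 and KRT19 by 2.54, and KRT7 was lower, with a difference of −5.86. Their median was 0.24 against −0.45 for all genes, and their part in the differences of the members was not tested. Over all 16 of the list the mean levels on the log2 scale ranged from 2.85 to 4.25 over SOX17-leading hatching cells, and from 2.46 to 3.91 over NANOG-leading ones.

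The members shared little of their variation over cells. After the mean of each stage was subtracted, Pearson's r over all 161 cells was between −0.12 and 0.11 for the 6 pairs of PEG3, MEST, GRB10 and NDN. PEG3 and NDN were detected together in 1 early, 4 middle, 2 late and 3 hatching cells. Compared in the same way with the 8952 other genes detected in at least 20% of cells (8953 for NDN), no member had a gene with r of at least 0.5, the level fixed for naming one as alike. The highest values were 0.49 for GRB10 with ELAVL1, 0.41 for MEST with STT3A, 0.35 for PEG3 with LLGL1 and 0.34 for NDN with BBX. Hatching cell H6 combined 33.8 FPKM of PEG3, 31.9 FPKM of NDN, 17.7 FPKM of PHLDA2, 40.5 FPKM of GRB10 and 1.64 FPKM of PEG10 with the lowest MEST of its stage, 10.9 FPKM.

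Beside IGF2, its related ligand IGF1 was detected in 0 early, 2 middle, 25 late and 6 hatching cells, and it was higher where SOX17 led. IGF1 averaged 4.63 ± 0.99 on the log2 scale in SOX17-leading and 0.58 ± 1.12 in NANOG-leading late cells, and 4.57 ± 2.21 in SOX17-leading and 0.08 ± 0.15 in NANOG-leading hatching cells. IGF1R, the receptor of both ligands, averaged 0.06 ± 0.08 in SOX17-leading and 2.54 ± 1.30 in NANOG-leading hatching cells. IGF2R, which clears IGF2 and is itself imprinted in mouse, averaged 2.30, 2.86, 2.01 and 1.83 from early to hatching, and 3.22 ± 1.66 in SOX17-leading against 1.31 ± 1.29 in NANOG-leading hatching cells. IGF2BP3, which binds IGF2 RNA, averaged 1.42 ± 1.55 in SOX17-leading and 4.33 ± 1.74 in NANOG-leading hatching cells, while IGF2 was detected in neither. PIK3R1, a regulatory subunit of the PI3 kinase, averaged 2.80 in SOX17-leading and 0.29 in NANOG-leading hatching cells. Of the 16 genes of insulin and IGF signalling with a mean FPKM of at least 1, of 19 with a row, 4 were at least 1 log2 unit higher and 0 lower in hatching minus early cells, with a median of 0.36 against −0.12 for all genes, of which 11.3% were higher and 16.2% lower. In SOX17-leading minus NANOG-leading hatching cells 4 were higher and 5 lower, with a median of −0.36 against −0.45, beside 14.2% of all genes higher and 33.7% lower.

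Other imprinted genes stood beside the members in the same table, 41 of a list of 50 with a row and 25 with a mean FPKM of at least 1. In hatching minus early cells 3 of the 25 were at least 1 log2 unit higher and 0 lower, with a median of 0.25 against −0.12 for all genes, of which 11.3% were higher and 16.2% lower. In SOX17-leading minus NANOG-leading hatching cells 6 were higher and 10 lower, with a median of −0.43 against −0.45. The 10 of 25 lower stand beside 33.7% of all genes lower and the 6 higher beside 14.2%, and lower values were common among all genes. The largest differences were those of OSBPL5 and PON2. OSBPL5, a lipid transfer protein encoded near PHLDA2 in the RefSeq table of assembly T2T-MMU8v2.0, averaged 0.43, 0.78, 1.33 and 3.04 from early to hatching. It was detected in 0 of 7 SOX17-leading and 18 of 19 NANOG-leading hatching cells, with means of 0.19 ± 0.17 in SOX17-leading and 4.09 ± 1.28 in NANOG-leading cells. NAP1L4, its neighbour there and also on the list, averaged 6.46, 6.71, 6.84 and 6.54, while PHLDA2 averaged 0.28, 0.05, 0.00 and 0.59. PON2, a lactonase, averaged 7.41 ± 0.89 in SOX17-leading and 3.56 ± 2.04 in NANOG-leading hatching cells. IMPACT, a regulator of translation, averaged 1.51 in SOX17-leading and 3.63 in NANOG-leading hatching cells. COPG2, the neighbour of MEST, averaged 2.45, 3.27, 3.08 and 3.08 from early to hatching. The zinc finger protein ZFP57, which keeps methylation on imprinted loci in mouse and human, averaged 4.70 ± 1.69, 5.49 ± 0.91, 4.43 ± 1.97 and 4.21 ± 2.42 from early to hatching. It was detected in 0 of 7 SOX17-leading and 19 of 19 NANOG-leading hatching cells, at means of 0.40 ± 0.32 in SOX17-leading and 5.61 ± 0.64 in NANOG-leading cells.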

How the data were processed

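The authors deposited 1 table of FPKM values for 16049 genes and 161 cells, and every column matched the title of 1 cell. Tools named in the submitters' processing notes, without their roles, are TopHat2 2.1.0, HTSeq, DESeq2 and FastQC. Build, annotation and strand are, for this table, not given in the sources used here. Both the members and the gene lists were chosen with earlier results of these data known.

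Whole reads were recovered from the steps of low values for 13836 of 13857 genes, counting a value as whole within 2e-06 of its size or within 1e-05 of a read. In each cell they hold from 83.1% to 93.2% of all FPKM, so the depths are lower bounds, and 0 pairs of cells were identical. PCR reads carry no molecular identifiers. Values were summarised as the mean over cells of log2(FPKM + 1), and a gene was counted as higher or lower at a difference of 1 log2 unit, beside all 9781 genes with a mean FPKM of at least 1. No p-value or standard error was computed, since a stage is 1 sample. Shares have exact Clopper-Pearson 95% intervals, and a share of 0 has a limit of 3 counts. Members detected in at least 20% of the cells of any stage are described in full and the others by ranges and counts. Up to 4 genes of each list are named by the largest difference; SGCE, MKRN3, MAGEL2, SNURF, NAP1L4 and COPG2 were named as neighbours of members, and cells were singled out after their values were seen. No doublet caller was run on these hand-picked cells. The scripts ran under scikit-learn 1.9.0, scipy 1.17.1, numpy 2.4.6 and pandas 2.3.3 in Python 3.11.15, with figures by matplotlib 3.10.9, and the steps were tested on simulated data. Alternatives varied the pseudocount, scaling, averaging, filter, cells used and detection level.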

Additional observations from a re-analysis of the deposited data

How the results depend on the processing

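The counts of members past 1 log2 unit are small, so 1 gene moves them. In hatching minus early cells the number higher (2) was 1 with a pseudocount of 10, and the number lower (0) was 1, PHLDA2 through E9, with log2 of the mean FPKM. In middle minus early cells the number higher (1) was 0 with a pseudocount of 10, with median-of-ratios scaling and with the median over cells, and the number lower (0) was 1 with log2 of the mean FPKM. In late minus middle cells the number higher (0) was 1, GRB10, among high title numbers. In hatching minus late cells the number higher (0) was 1, PHLDA2, with a pseudocount of 0.1 and with log2 of the mean FPKM. In late SOX17-leading minus NANOG-leading cells the number lower (0) was 1, PEG3, with a pseudocount of 0.1, with the median over cells and with the 7 nearly equal cells left out, and the number higher (0) was 1, GRB10, among high title numbers. In the hatching stage the number higher (0) was 1, PEG10, with a pseudocount of 0.1 and 2 with median-of-ratios scaling or log2 of the mean FPKM. The number lower (2) was 0 with a pseudocount of 10 and 1 with the median over cells. With median-of-ratios scaling, 20.6% of all genes were higher and 25.4% lower in this hatching comparison. In middle minus early cells 2.91% were higher and 3.15% lower with that scaling. Shares of all genes under the other settings of this paragraph are not given here, so those counts stand without a background.

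No difference of at least 1 log2 unit changed sign. Without the filter on low values, 7.11% of all genes were higher and 9.87% lower in hatching minus early cells. Leaving out E9 was chosen after seeing the data. Of the 477 recomputed member differences, 458 moved by less than the spread between cells. Many of these differences are themselves smaller than that spread. A small difference could thus vanish or change sign and still be counted among the 458, so this count does not show that the differences are stable. Detection at an FPKM of 5 moved 8 of 36 shares, and thinning moved 0 of 32. The thinned numbers count cells with at least 1 read and not cells at an FPKM of at least 1. With Pearson's r, 4 of 30 correlations moved by more than 0.2, and among high title numbers 11 of 30. With 7 SOX17-leading hatching cells, a gene detected in none of them may still be present in up to 42.9% of such cells. No paired analysis was possible because no result comes from a test and no embryo is named.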

Other observations

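Among the other genes that set or keep imprints, DNMT1, the methyltransferase that copies methylation onto new DNA, averaged 0.53 ± 0.85, 0.35 ± 0.84, 0.76 ± 1.08 and 2.79 ± 1.69 on the log2(FPKM + 1) scale from early to hatching. In the hatching stage it averaged 0.88 ± 1.48 in SOX17-leading cells (SD, n = 7) and 3.49 ± 1.14 in NANOG-leading cells (n = 19). UHRF1, which recruits DNMT1 to new DNA, averaged 0.91 in SOX17-leading and 3.39 in NANOG-leading hatching cells. KHDC3L, a maternal-effect gene needed for imprints in human eggs, averaged 3.88 ± 0.78 in SOX17-leading and 11.22 ± 0.48 in NANOG-leading hatching cells. Of the 8 such genes with a mean FPKM of at least 1, 0 were at least 1 log2 unit higher and 5 were lower in SOX17-leading minus NANOG-leading hatching cells, beside 14.2% of all genes higher and 33.7% lower, with a median of −2.16 against −0.45.

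Relatives of the members followed other patterns. GRB7, of the same adaptor family as GRB10, averaged 1.70, 1.79, 4.02 and 4.11 from early to hatching. MAGED2, of the family of NDN, averaged 4.67 ± 4.51 in SOX17-leading and 0.42 ± 1.17 in NANOG-leading hatching cells. SNRPB, the near relative of SNRPN, averaged 10.16, 10.17, 10.17 and 10.40 from early to hatching, while SNRPN itself was listed at 0 in all cells but 1. SNRPB averaged 8.99 in SOX17-leading and 10.92 in NANOG-leading hatching cells. How reads shared by SNRPN and SNRPB were counted was not tested.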
